A study of Mus musculus with 6 samples.

Results

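The enzymes described here are the glutathione transferases and the antioxidant enzymes of the mouse heart, followed in cardiac ventricles that carry Klf15 or lack its function. Members were taken by gene symbol and a minimum mean level. They are the alpha, kappa, mu, omega, pi, theta, zeta and microsomal glutathione transferases, the glutathione peroxidases, the peroxiredoxins, the thioredoxins with their reductases and the superoxide dismutases, plus Cat, Gclc, Gclm, Gsr, Gss, Nqo1, Hmox1 and Srxn1. The symbols named 54 of the 24391 gene entries, and 44 had a mean of at least 10 normalized counts over the 18 libraries. Those 44 members were among 13032 genes tested.

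Glutathione transferases join glutathione to electrophiles such as lipid-derived aldehydes, and several of them also reduce lipid peroxides. Superoxide dismutases turn superoxide into hydrogen peroxide, which catalase then breaks down directly and the glutathione peroxidases and peroxiredoxins reduce at the expense of glutathione or thioredoxin. The cardiomyocyte, rich in mitochondria, makes superoxide as a by-product of respiration, and the transcription factor NRF2, encoded by Nfe2l2, drives many of these genes through antioxidant response elements.

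RNA was sequenced from cardiac ventricles of C57BL/6 mice of 2 genotypes, WT and Klf15 KO (the loss-of-function group), at postnatal day 10 (P10), 4 weeks (4w) and 20 weeks (20w), with 3 libraries in each of the 6 groups. KLF15 belongs to the Krüppel-like zinc finger factors and regulates metabolism in heart, liver and muscle. The labels do not say how the loss of function was made or in which cells it acts. They also do not say that replicate libraries are separate animals, so a p-value here reflects library-to-library spread, which may be technical in part. Values are read counts divided by a size factor per library, called normalized counts here.

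Depth was 9504538 to 29278351 assigned reads per library. Klf15 itself stood at 1092, 860.2 and 1283 normalized counts in the 4w WT libraries and at 54.8, 28.4 and 43.5 in the 4w KO libraries, and the groups were apart at each age (log2 fold change -2.69 at P10, -4.67 at 4w and -4.65 at 20w). Library 2 of the 4w KO group stood apart, with 30.8% of its reads on the ribosomal RNA gene Rn45s against at most 2.72% elsewhere. Counts are therefore also given without the 4 libraries highest in Rn45s, which are library 2 of each 4w and 20w group. That setting leaves fewer libraries in these groups and removes none from P10. Whether a call lost there reflects Rn45s or the fewer libraries was not tested. The P10 libraries of both genotypes held RNA of both sexes, whereas Xist was at most 9.4 normalized counts at 4w and 20w. At P10 Xist was at 11077, 5229 and 9514 in the WT libraries and 6612, 4814 and 5545 in the KO libraries. The sex mix may thus differ between the P10 genotypes, and its part in their contrast was not tested. Cardiomyocyte markers were abundant throughout, and none of 8 was called between genotypes at P10 or 20w, while Ryr2 was higher in KO at 4w. Every library was also set to a common read total in place of the authors' size factors. The median of all genes in the 4w genotype contrast then moved to -0.236 on the log2 scale. That total counts Rn45s reads, so it scales down the other genes of 4w KO library 2. Changes at 4w are relative to the scaling used.

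In WT ventricles the members spanned a wide range of abundance, read here as normalized counts per kb of exon so that genes of different length can be compared. At 4w the highest were Prdx3, the mitochondrial peroxiredoxin, at 3310 per kb, then Sod1 and Sod2, the cytosolic and the mitochondrial superoxide dismutase, at 1980 and 1910. Prdx2 was at 1920 and Mgst3, a membrane-bound transferase, at 1880 per kb. Gsto1 led the soluble transferases at 1500 per kb, followed by Gsta4 at 815, Gstk1 at 733 and Gstm1 at 574. At the other end, Gsto2 was at 6.59 per kb. Gstk1 ranked 27 of 44 at P10, 14 at 4w and 12 at 20w in WT, and 29 of 44 in the 20w KO ventricles, where it fell to 109 per kb. Gstm2 ranked 24 in the 20w WT group and 43 in the 20w KO group, at 254 and 17.8 per kb.

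**Figure D1:**
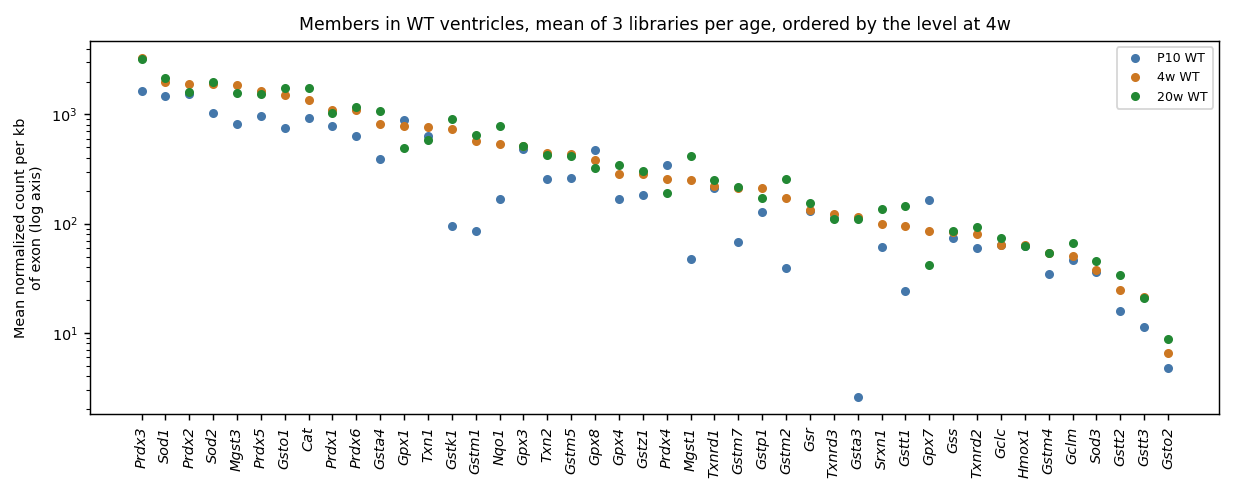
Each point is the mean of 3 WT libraries in normalized counts per kb of exon (log axis) for a member, with members ordered by their 4w level and ages in colour. Prdx3 stands highest at 3310 per kb at 4w and Gsto2 lowest at 6.59, and the P10 point of Gsta3 (2.58) lies far under its 4w point (115).

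Gstk1, Gstm2 and Gstm7 were strongly lower in KO ventricles, and most of the antioxidant enzymes were not called between genotypes. At P10, 3 of the 44 members were lower in KO and 0 were higher, at a limma adjusted p under 0.05 over all genes tested, where 1.67% of all genes were called lower and 0.591% higher. At 4w, 8 members were lower and 1 was higher, against 2.66% and 2.99% of all genes. At 20w, 5 were lower and 3 were higher, against 4.28% and 3.21%. Averaged over the ages, 11 were lower and 2 higher, against 6.1% and 4.27%. As shares of the members, the lower calls were 6.82% at P10, 18.2% at 4w, 11.4% at 20w and 25.0% on average, and the higher calls were 0, 2.27%, 6.82% and 4.55%. The median log2 fold change of the 44 members stayed near 0, at -0.09, -0.10 and 0.06 at P10, 4w and 20w, beside -0.01, 0.00 and 0.01 for all genes. Members not called ranged from -0.47 (Gstm2) to 0.36 (Gstt2) at P10, from -0.51 (Gstt3) to 0.27 (Srxn1) at 4w, and from -0.80 (Gsta3) to 0.41 (Gpx1) at 20w. Without the 4 libraries highest in Rn45s, 2, 4 and 5 members were called at P10, 4w and 20w. In bulk tissue, fewer cells of a type and less RNA per cell cannot be told apart.

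**Figure D2:**
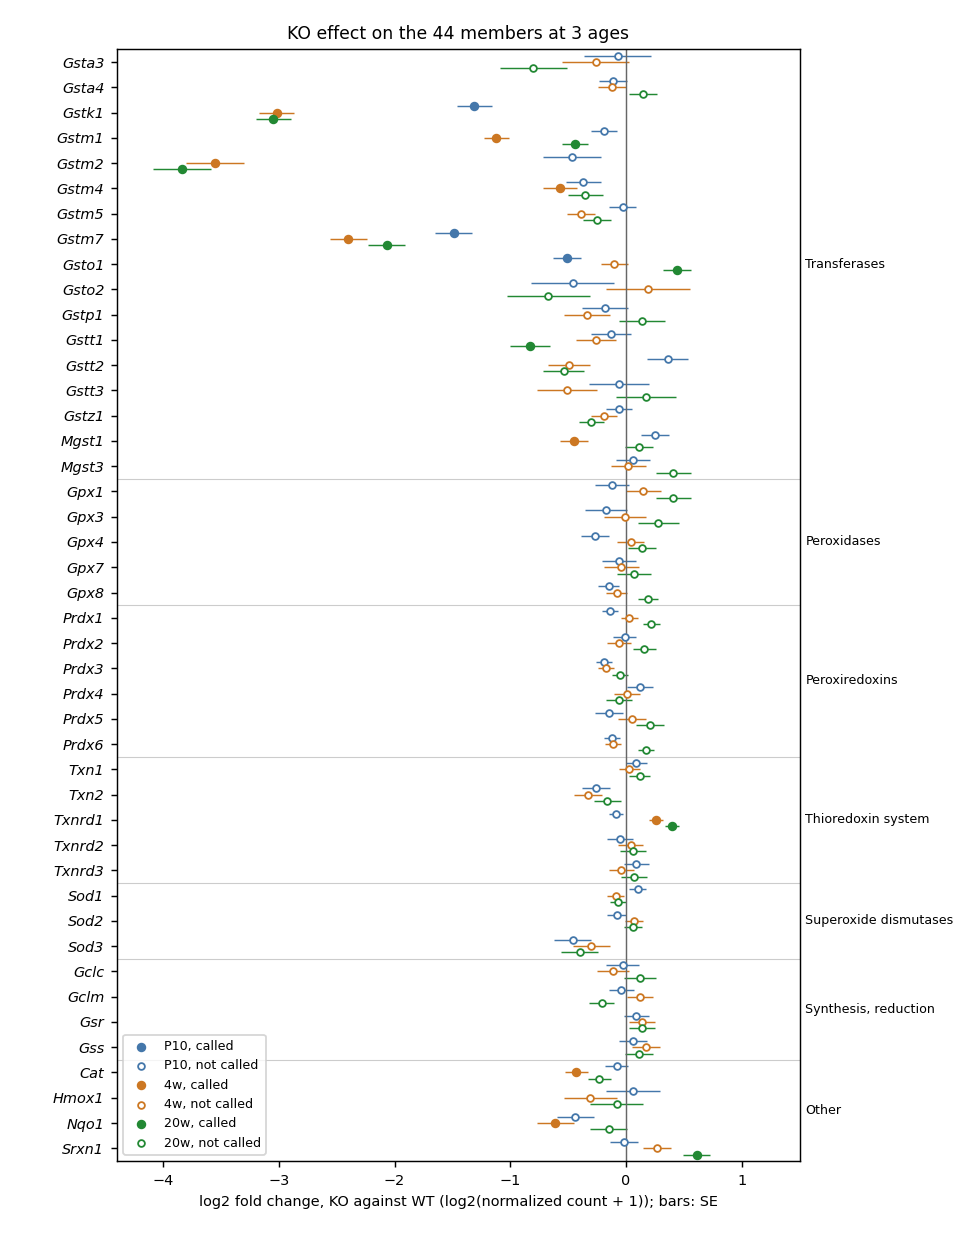
Log2 fold change of KO against WT with its SE for the 44 members at P10, 4w and 20w, where filled points were called (limma adjusted p under 0.05) and open points were not. Gstk1, Gstm2 and Gstm7 lie far to the left, with Gstm2 at -3.84 at 20w, whereas no glutathione peroxidase, superoxide dismutase or enzyme of glutathione synthesis has a filled point.

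Some marker lists moved beside these counts. At P10 the summed erythroid list was 478 to 562 normalized counts in KO and 666 to 821 in WT, with 0 of its 3 tested genes called and its 4 globin entries listed at 0 in every library. The P10 lists of pericytes and smooth muscle (16376 to 19652 in KO, 15354 to 15768 in WT) and liver (9.62 to 13.9 in KO, 3.25 to 4.98 in WT) ran the other way, with no gene called. At 4w the pericyte marker Cspg4 was higher in KO (0.50, limma adjusted p = 0.037). At 4w, 2 of 8 fibroblast markers (Dcn and Dpt) were lower in KO, and the summed list was 22144 to 25301 in KO against 26066 to 31820 in WT. The 4 adipocyte markers, none of which reached a mean of 10, summed to 12.2 to 18.4 in 4w KO and 28.6 to 42.2 in 4w WT, and the liver list summed to at most 20.3 in 4w KO and at least 44.4 in 4w WT, with Cyp2e1, its only tested gene, called lower. At 20w the macrophage list summed to 3875 to 4201 in KO and 3174 to 3601 in WT, with 0 of 8 called. Their part in the members' results was not tested.

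The mu-class transferases, cytosolic enzymes that conjugate glutathione to aromatic and lipid electrophiles, held many of the lowered members. Summed over the 5 tested Gstm genes, the class was at 585 ± 73.9 normalized counts in WT and 473 ± 39.5 in KO at P10 (± SD, n = 3 libraries per genotype). At 4w it was at 1822 ± 193 in WT and 825 ± 46.7 in KO, and at 20w at 2016 ± 93.4 and 1175 ± 17.1. The KO sums lay under the WT sums at 4w and at 20w, and overlapped at P10, where the highest KO sum was 518 and the lowest WT sum 512. Of the 5 genes, 1 was called lower at P10, 4 at 4w and 3 at 20w, and none was higher.

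Gstm2 showed the widest gap between genotypes. The WT libraries held 184, 224 and 212 normalized counts at 4w and 305, 288 and 314 at 20w. Those of KO held 12.6, 22.3 and 16.3 at 4w and 28.9, 21.9 and 12.8 at 20w. Every KO library was far under every WT library at both ages, and the difference was 11.7-fold at 4w (log2 fold change -3.55 with SE 0.25, adjusted p = 1.5e-08 by limma) and 14.3-fold at 20w (log2 fold change -3.84 with SE 0.25, adjusted p = 3.2e-09 by limma). At P10, where WT libraries held 31.9, 58.9 and 50.3 and KO libraries 35, 28.9 and 34.1, the groups overlapped and the gene was not called (log2 fold change -0.47 with SE 0.25, adjusted p = 0.42 by limma). The WT means went from 47 at P10 to 207 and 302, and the KO means from 32.6 at P10 to 17.1 and 21.2.

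Gstm7 was lower in KO at all 3 ages. It stood at 88.1, 125 and 86 in the P10 WT libraries and at 42.5, 28.9 and 33.2 in the P10 KO libraries. At 4w the WT values were 269.7, 305 and 347 and the KO values 59.8, 50.7 and 61.9. The 20w libraries gave 354, 304 and 289 in WT and 79.1, 67.9 and 75.5 in KO. No KO library reached the lowest WT library of its age. The change was 2.8-fold at P10 (log2 fold change -1.49 with SE 0.16, adjusted p = 1.9e-05 by limma), 5.26-fold at 4w (limma adjusted p = 8.7e-09) and 4.2-fold at 20w (limma adjusted p = 4.2e-08).

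Gstm1, the most abundant mu-class gene per kb in 4w and 20w WT ventricles, changed less. Its 4w libraries held 633, 895 and 825 in WT and 343, 343 and 386 in KO, a 2.17-fold difference with no overlap (log2 fold change -1.12 with SE 0.11, adjusted p = 7.1e-07 by limma). At 20w the values were 907, 832 and 941 in WT and 653, 648 and 678 in KO, again apart (log2 fold change -0.44 with SE 0.11, adjusted p = 0.014 by limma). The 20w call of Gstm1 was lost with a common read total (0.18), without the 4 libraries highest in Rn45s (0.055) and without 20w WT library 3 (0.07), with limma adjusted p in parentheses. At P10 WT held 112, 125 and 118 and KO 98.9, 102 and 109.9, close but not overlapping, with no call (limma adjusted p = 0.45). Gstm4 was lower at 4w, with 84.3, 95.3 and 93.9 in WT and 59.8, 62.9 and 60.8 in KO (log2 fold change -0.57 with SE 0.15, adjusted p = 0.024 by limma). That call was lost with the fit limited to the contrast's own libraries (0.055), without the 4 libraries highest in Rn45s (0.13), without 4w WT library 2 (0.096), without 4w WT library 3 (0.084), without 4w KO library 1 (0.091), without 4w KO library 2 (0.058) and without 4w KO library 3 (0.06). Gstm5 averaged 433 ± 11.9 in 4w WT and 332 ± 41.6 in 4w KO and was not called (limma adjusted p = 0.074), though DESeq2 called it at an adjusted p of 0.038.

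**Figure D3:**
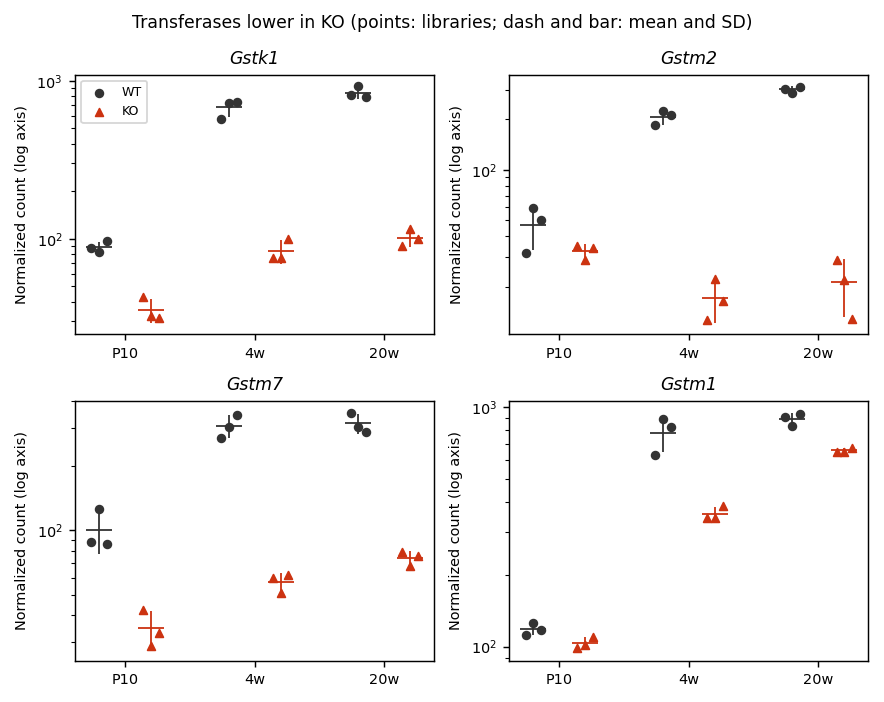
Normalized counts per library (log axis) of Gstk1, Gstm2, Gstm7 and Gstm1 in WT (circles) and KO (triangles) at P10, 4w and 20w, with dashes and bars for the mean and SD of 3 libraries. The WT points rise from P10 to 4w in all 4 genes, and at 4w and 20w no KO triangle reaches the WT circles of its age, Gstm2 at 20w being at 12.8 to 28.9 in KO against 288 to 314 in WT.

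The Gstm genes sit side by side on chromosome 3 within 149.3 kb (RefSeq, GRCm38.p6), in the order Gstm5, Gstm7, Gstm6, Gstm3, Gstm2, Gstm1 and Gstm4, with pseudogenes between some of them. The strongly lowered Gstm7 and Gstm2 are not neighbours: Gstm6 and Gstm3 lie between them and were under the mean of 10. Gstm6 was listed at 15.7, 19.7 and 14.1 in 20w WT and at 2.6, 1 and 8.5 in 20w KO, and Gstm3 at 0 in all but 2 libraries. Gstm5 and Gstm4, at either end of the cluster, had smaller changes than Gstm1 at 4w and 20w (-0.39 and -0.25 for Gstm5, -0.57 and -0.35 for Gstm4), whereas at P10 Gstm4 was at -0.37 and Gstm1 at -0.19. Reads can be shared with other transcripts: 23.1% of 50-base windows of the Gstm1 transcript also occur in those of other genes, mostly the pseudogene Gstm2-ps1 (17.3%). Both strands were searched, so a transcript that overlaps the gene itself would count as shared. For Gstm2 the share was 9.36%, of which 5.52% was with Gm12499, and for Gstm5 it was 14.4%, all with 4933431E20Rik. Gstm4 and Gstm7 shared 0. How reads in shared windows were counted is not given, so values of Gstm1, Gstm2 and Gstm5 are uncertain by an unknown amount.

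**Figure D4:**
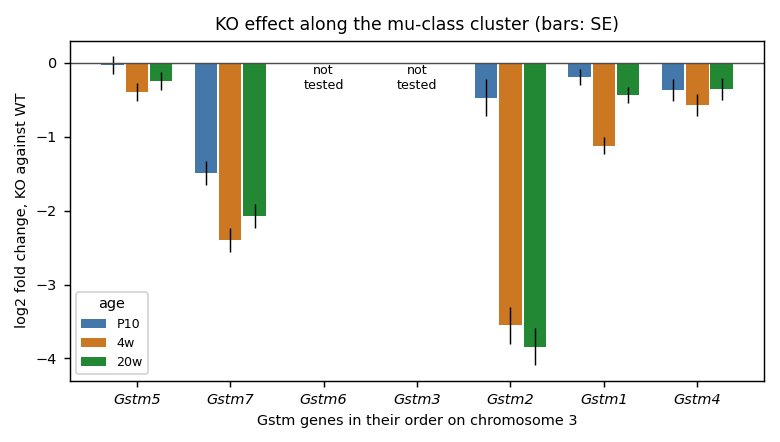
Log2 fold change of KO against WT at each age, with SE, for the Gstm genes in their order on chromosome 3, where Gstm6 and Gstm3 were under the mean of 10 and not tested. Gstm7 (-1.49, -2.40 and -2.07) and Gstm2 (-0.47, -3.55 and -3.84) have the deepest bars, and Gstm5 at the end of the cluster has bars no deeper than -0.39.

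Gstk1, the kappa-class transferase of mitochondria and peroxisomes, had the smallest adjusted p of any member at 4w, at 20w and on average over the ages, while at P10 that of Gstm7 was smaller. At P10 it was at 87.2, 82.1 and 96.5 in WT and 42.5, 32.5 and 31.5 in KO. By 4w the WT libraries were at 575, 730.3 and 739 and the KO libraries at 75.8, 75.1 and 99.7. At 20w the values were 821, 924 and 789 and 89.4, 115 and 99.7. The genotypes did not overlap at any age, and the KO level at 20w was close to the WT level at P10. The difference was 2.47-fold at P10 (log2 fold change -1.31 with SE 0.15, adjusted p = 2.2e-05 by limma), 8.09-fold at 4w (log2 fold change -3.02 with SE 0.15, adjusted p = 3.7e-11 by limma) and 8.29-fold at 20w (log2 fold change -3.05 with SE 0.15, adjusted p = 2.2e-11 by limma). Gstk1 lies on chromosome 6, as Klf15 does, but 48.2 Mb away with 403 protein-coding genes between them. The closest member, Txnrd3, is 0.8 Mb from Klf15 and was not called at any age.

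Because Gstk1, Gstm2 and Gstm7 fell together and Srxn1 and Txnrd1 rose, the promoters of the 5 are printed, from 250 bases before to 50 after the start site (RefSeq, GRCm38.p6), each 5′ to 3′ on its own strand. Capitals mark the core of the antioxidant response element that NRF2 binds (TGACNNNGC) and the CACCC box, a motif that Krüppel-like factors can bind, on either strand. Windows were Gstk1 at chr6:42245685-42245984, plus strand, Gstm2 at chr3:107986371-107986670, minus strand, Gstm7 at chr3:107931565-107931864, minus strand, Srxn1 at chr2:152105274-152105573, plus strand and Txnrd1 at chr10:82858956-82859255, plus strand.
Gstk1: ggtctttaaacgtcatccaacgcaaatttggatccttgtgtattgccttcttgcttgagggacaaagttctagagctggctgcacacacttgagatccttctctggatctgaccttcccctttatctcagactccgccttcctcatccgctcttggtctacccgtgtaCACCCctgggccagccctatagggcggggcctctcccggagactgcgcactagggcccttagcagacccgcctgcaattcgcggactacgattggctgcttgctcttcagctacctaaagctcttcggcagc
Gstm2: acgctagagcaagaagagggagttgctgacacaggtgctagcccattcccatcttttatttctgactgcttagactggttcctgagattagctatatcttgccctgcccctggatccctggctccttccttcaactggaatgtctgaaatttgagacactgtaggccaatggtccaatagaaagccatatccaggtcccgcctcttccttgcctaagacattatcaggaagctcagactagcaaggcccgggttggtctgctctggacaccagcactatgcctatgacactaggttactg
Gstm7: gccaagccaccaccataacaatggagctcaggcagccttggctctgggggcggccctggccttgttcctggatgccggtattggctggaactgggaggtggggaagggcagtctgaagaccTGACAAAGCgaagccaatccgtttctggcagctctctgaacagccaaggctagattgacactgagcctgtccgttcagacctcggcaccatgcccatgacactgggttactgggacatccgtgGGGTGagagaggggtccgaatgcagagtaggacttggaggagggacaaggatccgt
Srxn1: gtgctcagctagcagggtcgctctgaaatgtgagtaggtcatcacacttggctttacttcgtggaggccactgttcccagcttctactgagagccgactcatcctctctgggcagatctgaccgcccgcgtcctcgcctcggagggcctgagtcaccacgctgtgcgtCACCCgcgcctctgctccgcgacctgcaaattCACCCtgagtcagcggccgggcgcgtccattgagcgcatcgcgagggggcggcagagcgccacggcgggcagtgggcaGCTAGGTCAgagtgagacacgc
Txnrd1: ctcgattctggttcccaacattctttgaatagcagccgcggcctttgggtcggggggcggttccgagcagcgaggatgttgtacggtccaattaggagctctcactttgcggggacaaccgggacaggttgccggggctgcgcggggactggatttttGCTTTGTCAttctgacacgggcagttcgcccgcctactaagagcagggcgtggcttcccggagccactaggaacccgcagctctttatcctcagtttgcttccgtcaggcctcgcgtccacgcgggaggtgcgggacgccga
The Gstk1 window holds a CACCC box 82 bases upstream of the start, that of Gstm7 an element core 129 bases upstream and a CACCC box 6 bases upstream, and that of Gstm2 neither. Srxn1 has CACCC boxes 82 and 50 bases upstream and an element core 28 bases downstream, and the Txnrd1 window an element core 92 bases upstream. The window of Gsto1, not printed, holds no element core and has CACCC boxes 238 and 148 bases upstream. The windows printed for Gstm7 and Txnrd1 are those, among several listed starts, that hold an element core. The other Gstm7 window holds neither motif. A GC box 203 bases upstream in the printed Gstm7 window is at position 0 of the other. Both motifs marked for Gstm7 therefore lie downstream of that other start. The other 2 Txnrd1 windows hold no element core, and 1 has a CACCC box 31 bases upstream and the other has CACCC boxes 59 and 47 bases upstream. The table gave a promoter for 37 of the 44 members, 49 windows in all, of which 18.4% held the element core, 65.3% a CACCC box and 71.4% a GC box (GGGCGG, not marked). Among all 32851 promoters of that length these shares were 12.4%, 57.5% and 35.7%. A CACCC box can share letters with a GC box. These are letter matches in the given windows, and forms of the element with other letters were not searched.

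Among the other transferases, the omega-class Gsto1, which reduces dehydroascorbate and arsenic compounds, went in opposite directions with age. At P10 it was at 772, 979.9 and 893 in WT and 689.5, 618 and 543 in KO, lower in KO without overlap (log2 fold change -0.51 with SE 0.12, adjusted p = 0.031 by limma). The 20w libraries held 2201, 2026 and 1921 in WT and 2701, 2612 and 3009.9 in KO, now higher without overlap (log2 fold change 0.44 with SE 0.12, adjusted p = 0.033 by limma). The groups overlapped at 4w (log2 fold change -0.10 with SE 0.12, adjusted p = 0.76 by limma). The P10 call was lost with no filter on low values (0.059), with a common read total (0.12), without the 4 libraries highest in Rn45s (0.074), without P10 WT library 2 (0.16), without P10 WT library 3 (0.12), without P10 KO library 2 (0.092) and without P10 KO library 3 (0.18), with limma adjusted p in parentheses. The 20w call was lost with no filter on low values (0.055), with a common read total (0.14), without the 4 libraries highest in Rn45s (0.14), without 20w WT library 2 (0.09), without 20w WT library 3 (0.13) and without 20w KO library 3 (0.14).

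The theta-class Gstt1, known for the conjugation of small halogenated compounds, was lower at 20w, with 241, 207 and 196 in WT and 128, 129.6 and 104 in KO, which did not overlap (log2 fold change -0.83 with SE 0.17, adjusted p = 0.0048 by limma). At 4w its groups overlapped, at 142 ± 26 and 118 ± 18.1 (limma adjusted p = 0.49). Gstt2 averaged 77.6 ± 4.4 in 20w WT and 53.1 ± 3.3 in 20w KO and was not called (limma adjusted p = 0.078). Mgst1, a microsomal transferase with peroxidase activity, was at 402, 480.1 and 494 in 4w WT and 338, 361 and 308 in 4w KO, with no overlap (log2 fold change -0.45 with SE 0.12, adjusted p = 0.032 by limma). That call was lost without the 4 libraries highest in Rn45s (0.2), without 4w WT library 2 (0.13), without 4w WT library 3 (0.13), without 4w KO library 1 (0.091) and without 4w KO library 3 (0.11). At 20w Mgst1 overlapped between genotypes (log2 fold change 0.11). Gsta3, an alpha-class enzyme, was at 158, 155 and 201 in 20w WT and 62.1, 115 and 128 in 20w KO. Its groups did not overlap, but limma did not call it (log2 fold change -0.80 with SE 0.29, adjusted p = 0.1 by limma), while DESeq2 and edgeR did, at adjusted p of 0.03 and 0.047. Gsta4, Gsto2, Gstp1, Gstt3, Gstz1 and Mgst3 were called at no age between genotypes, and the Gstp1 values share 62.3% of their 50-base windows with Gstp2.

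No glutathione peroxidase was called between genotypes at any age, in 5 tested genes. Gpx1, the cytosolic selenoenzyme that removes hydrogen peroxide, was at 554, 544 and 489 in 20w WT and 569, 778 and 791 in 20w KO. The KO values lay above the WT values with the widest spread in KO, and the difference was not called (log2 fold change 0.41 with SE 0.15, adjusted p = 0.11 by limma). Left without KO library 1, the 20w contrast called Gpx1 and Mgst3 higher (limma adjusted p = 0.027 and 0.033). Gpx3, the secreted peroxidase, averaged 826 ± 45.1 in 20w WT and 1007 ± 74.3 in 20w KO (limma adjusted p = 0.38). Gpx4, which reduces lipid hydroperoxides in membranes, was at 366 ± 5.3 and 378 ± 41.1 at 4w, with 61.7% of its windows shared with a pseudogene. Across the 5 genes the log2 fold changes ran from -0.27 to -0.06 at P10, -0.08 to 0.15 at 4w and 0.07 to 0.41 at 20w.

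The peroxiredoxins, which remove hydrogen peroxide with thioredoxin as the reductant, were close between genotypes as well. None of 6 was called at a given age, and their log2 fold changes lay between -0.19 and 0.22 at all 3 ages. Prdx3, which works in mitochondria, was lower in KO on average over the ages by a small amount (log2 fold change -0.13 with SE 0.04, adjusted p = 0.032 by limma). Its 4w values were 4829, 4769 and 5100.5 in WT and 4268, 4443 and 4380.5 in KO. The averaged call of Prdx3 was lost in 10 of the refits that left out a library and in 13 settings in all, with limma adjusted p up to 0.1. Prdx1 averaged 2640.3 ± 96.4 in 20w WT and 3087 ± 241 in 20w KO (limma adjusted p = 0.067), and DESeq2 called it higher at 0.045.

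In the thioredoxin system 1 gene stood out. Txnrd1, the cytosolic thioredoxin reductase, was at 1026, 980.3 and 1059 in 20w WT and 1335, 1272 and 1456 in 20w KO. The KO libraries lay above the WT libraries, by 1.32-fold (log2 fold change 0.40 with SE 0.06, adjusted p = 0.00041 by limma). At 4w the values were 904, 895 and 881 and 1021, 1081 and 1109.8, also apart (log2 fold change 0.26 with SE 0.06, adjusted p = 0.02 by limma). With a common read total, which counts Rn45s and put the median of all genes at -0.236 at 4w, the 4w change was 0.02 (limma adjusted p = 0.94). The 20w change was 0.40 with no call (limma adjusted p = 0.14). The 4w call was also lost with the fit limited to the contrast's own libraries (0.069), without the 4 libraries highest in Rn45s (0.16), without 4w WT library 2 (0.066), without 4w WT library 3 (0.071), without 4w KO library 2 (0.074) and without 4w KO library 3 (0.074). At P10 Txnrd1 was not called (log2 fold change -0.09 with SE 0.06, adjusted p = 0.6 by limma). Txn2, the mitochondrial thioredoxin, was lower on average (log2 fold change -0.25 with SE 0.07, adjusted p = 0.029 by limma), at 1737 ± 105 in WT and 1393 ± 221 in KO at 4w. Its averaged call was lost without the 4 libraries highest in Rn45s (0.23), without P10 WT library 2 (0.059), without P10 KO library 1 (0.06), without 4w WT library 2 (0.06), without 4w KO library 3 (0.062), without 20w WT library 2 (0.063) and without 20w KO library 2 (0.064). Txn1, Txnrd2 and Txnrd3 were called in no genotype contrast, with log2 fold changes between -0.05 and 0.12.

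Srxn1, sulfiredoxin, which restores over-oxidized peroxiredoxins, was higher in KO at 20w. The WT libraries held 429, 340.5 and 387 and the KO libraries 600.0, 557 and 601, 1.52-fold higher with no overlap (log2 fold change 0.61 with SE 0.12, adjusted p = 0.0032 by limma). It was not called at 4w, at 253, 297 and 288 in WT and 306, 331 and 376 in KO, although KO lay above WT there too (limma adjusted p = 0.23). At P10 the groups overlapped at 172 ± 23.8 and 169.9 ± 21.4. The 20w call of Srxn1 was lost without the 4 libraries highest in Rn45s (0.059).

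Nqo1, a quinone reductase and a common readout of NRF2, was at 757, 733 and 982 in 4w WT and 418, 586 and 622 in 4w KO, lower in KO with no overlap (log2 fold change -0.61 with SE 0.16, adjusted p = 0.023 by limma). Its call was lost without the 4 libraries highest in Rn45s (0.063), without 4w WT library 3 (0.13) and without 4w KO library 1 (0.15). At 20w the Nqo1 values were 1341, 1072 and 1231 and 1295, 934 and 1074, which overlapped (log2 fold change -0.15 with SE 0.16, adjusted p = 0.64 by limma). Cat, catalase of the peroxisome, was at 2954, 3536 and 4229.6 in 4w WT and 2706, 2725 and 2455 in 4w KO, where the lowest WT library was little above the KO values (log2 fold change -0.43 with SE 0.10, adjusted p = 0.017 by limma). That call was lost with the fit limited to the contrast's own libraries (0.052), without the 4 libraries highest in Rn45s (0.11), without 4w WT library 2 (0.059), without 4w WT library 3 (0.11) and without 4w KO library 3 (0.066). At 20w Cat was at 4567, 4622 and 4645 in WT and 4386, 3437 and 3997 in KO, which did not overlap (limma adjusted p = 0.19). Hmox1, haem oxygenase and another NRF2 target, averaged 97.7 ± 25.1 in 20w WT and 92.6 ± 24.7 in 20w KO and was not called at any age.

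**Figure D5:**
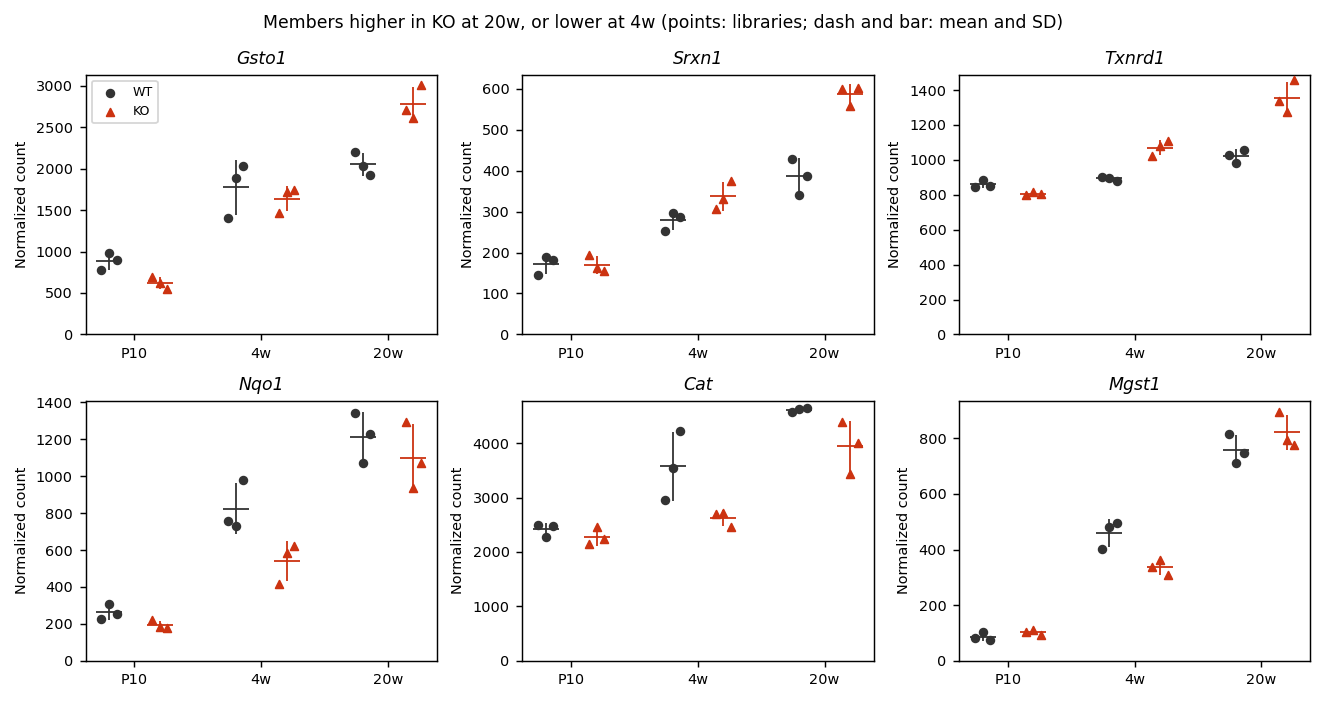
Normalized counts per library (axes from 0) of Gsto1, Srxn1, Txnrd1, Nqo1, Cat and Mgst1 in WT (circles) and KO (triangles) at P10, 4w and 20w, with dashes and bars for the mean and SD of 3 libraries. At 20w the KO triangles of Gsto1 (2612 to 3010), Srxn1 (557 to 601) and Txnrd1 (1272 to 1456) lie above the WT circles, while at 4w those of Nqo1, Cat and Mgst1 lie below.

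The superoxide dismutases were not called at any given age. Sod2 averaged 11179.5 ± 576 in 4w WT and 11701 ± 565 in 4w KO (limma adjusted p = 0.75), and Sod1 averaged 1388 ± 59.8 and 1318 ± 33.4 at 20w (limma adjusted p = 0.61). Sod3, the secreted enzyme of the extracellular matrix, was at 199, 158 and 158 in 20w WT and 106, 142 and 141 in 20w KO. Its log2 fold changes of -0.46, -0.30 and -0.40 at P10, 4w and 20w were not called, and the average over the ages was (log2 fold change -0.39 with SE 0.09, adjusted p = 0.0087 by limma). Glutathione synthesis and reduction were without a call at each age. Gclc, the catalytic subunit of the rate-limiting ligase, averaged 218 ± 9.9 in 4w WT and 204 ± 33.8 in 4w KO, and Gclm, its modifier subunit, averaged 283 ± 26.6 and 307 ± 13.8. Gsr, which regenerates glutathione, was at 415 ± 28 and 460.2 ± 60.5 at 20w. Gss, which completes its synthesis, was at 169 ± 23.1 and 182 ± 10.7. The log2 fold changes of these 4 genes lay between -0.21 and 0.17 at all 3 ages.

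The genotype effect differed between ages for some members, in a test of the difference itself that shares its libraries with the contrasts above. For differences from P10, age and sex makeup cannot be told apart, since only the P10 libraries held RNA of both sexes. Between P10 and 4w, 4 of the 44 effects differed, against 1.26% of all genes: Gstm2 by -3.08 on the log2 scale (limma adjusted p = 0.00027), Gstk1 by -1.71 (0.00027), Gstm1 by -0.93 (0.0034) and Mgst1 by -0.69 (0.048). The Gstm1 difference was lost without the 4 libraries highest in Rn45s (limma adjusted p = 0.074). The Mgst1 difference lost its call in 14 of the refits without a library and in 18 settings in all, with limma adjusted p up to 0.22. Between P10 and 20w, 5 differed, against 3.74%: Gstm2 by -3.37 (limma adjusted p = 2e-05), Gstk1 by -1.75 (8.1e-05), Gsto1 by 0.95 (0.0042), Srxn1 by 0.63 (0.046) and Txnrd1 by 0.50 (0.0045). The Srxn1 difference lost its call in 11 of the refits without a library and in 16 settings in all, with limma adjusted p up to 0.13 among those refits and 0.34 with a common read total. The Txnrd1 difference was lost with a common read total (limma adjusted p = 0.37). Between 4w and 20w limma called 0 of 44, against 0.192% of all genes, with 6 at an unadjusted p under 0.05. There edgeR called 0 and DESeq2 called 2, Gstm1 and Mgst1, whose effects were nearer to 0 or positive at 20w. Gstm1 was also called by limma there without P10 WT library 2 (adjusted p = 0.045), without 4w WT library 1 (0.0077) and without 20w KO library 2 (0.047).

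In WT ventricles the transferases rose sharply between P10 and 4w. Of the 44 members 30 rose and 3 fell, against 28.7% and 29.2% of all genes, and 16 of the 17 glutathione transferases rose. The members' median was 0.64 on the log2 scale and that of all genes -0.01. Gsta3 rose most, from 3.7, 2.5 and 5.7 to 136, 192 and 208 normalized counts (log2 fold change 5.20 with SE 0.29). It passed the filter on the mean only through the 4w and 20w libraries, so its rise is given as a description. The counts of 30 and 16 and the members' median include Gsta3, whose rise that filter favoured. Gsta3 was followed by Gstk1 at 2.92, Gstm1 at 2.71, Mgst1 at 2.40 and Gstm2 at 2.15 (limma adjusted p at most 5.7e-07). Those that fell were Gpx7 (-0.93) and Prdx4 (-0.42), enzymes of the endoplasmic reticulum, and Gpx8 (-0.31), which sits in its membrane (limma adjusted p at most 0.0075). The Gpx8 call was lost without P10 WT library 3 (0.051) and without 4w WT library 3 (0.067). The smallest called rises were those of Txn1 (0.28) and Prdx2 (0.33), and 21 of the 33 calls were kept in every setting. With a common read total, under which the median of all genes moved to -0.257, 20 members rose and 4 fell, and the rises of Cat, Gstm4, Gstp1, Gstt2, Gstt3, Prdx1, Prdx2, Sod1, Txn1 and Txnrd2 were not called (limma adjusted p of 0.065 to 0.89). Beside this, 7 of 8 fibroblast markers were lower, 8 of 8 macrophage markers and 7 of 8 cardiomyocyte markers were higher at 4w, and the P10 libraries held RNA of both sexes. Their part in the rise was not tested.

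From 4w to 20w the WT changes were smaller, with 8 members higher and 5 lower, against 13.3% and 11.8% of all genes. Mgst1 went from 459 ± 49.8 to 758 ± 52.6 (log2 fold change 0.73 with SE 0.12, adjusted p = 0.00023 by limma). Gstt1 rose by 0.61, Nqo1 by 0.57, Srxn1 by 0.46 and Gsta4 by 0.41 on the log2 scale (limma adjusted p at most 0.015). Gpx7 fell again, from 116, 108 and 106 to 50.1, 62.5 and 48.6 (log2 fold change -1.03 with SE 0.15, adjusted p = 8.6e-05 by limma). Gpx1 changed by -0.65, Prdx4 by -0.44, Txn1 by -0.39 and Prdx2 by -0.27 (limma adjusted p at most 0.049). Of these 13 calls 2, Mgst1 and Gpx7, held in every alternative setting. The others had limma adjusted p of up to 0.84 in some setting. Without 4w WT library 1, 8 members were called, 4 higher and 4 lower. Calls lost when 1 library was left out were those of Gstt1 (without 4w WT library 1 (0.077) and without 20w WT library 1 (0.065)), Nqo1 (without 4w WT library 2 (0.058) and without 20w WT library 1 (0.054)), Gsta4 (without 4w WT library 1 (0.07)), Cat (without 4w WT library 1 (0.079)) and Gclm (without 4w WT library 1 (0.087), without 4w WT library 2 (0.065) and without 20w WT library 3 (0.14)), and those of Prdx2 in 10 and Txnrd1 in 5 such refits.

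Outside the members, the regulators of the pathway were mostly without a call. Of 14 genes in the list of NRF2 regulators, 0 were called at P10 and 4w and 1 at 20w, Sqstm1, the autophagy adaptor p62 that binds KEAP1 (log2 fold change 0.36 with SE 0.08, adjusted p = 0.0068 by limma). Nfe2l2 was at 1736, 1474 and 1667 in 20w WT and 1501, 1273 and 1345 in 20w KO, which overlapped, and was not called at any age, but lower on average (log2 fold change -0.18 with SE 0.04, adjusted p = 0.011 by limma). Keap1, which targets NRF2 for degradation, and Bach1, a repressor at the same elements, were called in no genotype contrast (log2 fold changes of -0.02 to 0.16 and -0.17 to 0.15). Of 23 other NRF2 targets tested, Trim16 was higher at 20w (0.81), Me1 and Ces1d were lower (-0.45 and -0.74), and none was called at P10 or 4w. Glutathione turnover and transport had 0 of 33 called at P10 and 4w. At 20w Clic5 and Clic4, of the glutathione transferase fold, were higher (0.69 and 0.20) and Oplah, which acts on 5-oxoproline, was lower (-0.48). Of all genes, 3.21% were called higher and 4.28% lower at 20w.

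The enzymes that supply and use cysteine, the sulfur source of glutathione, held a large change. Cth, cystathionine gamma-lyase, which makes cysteine, was at 30.0, 28.6 and 38.3 in the 4w WT libraries and 0.8, 0 and 0.5 in the 4w KO libraries. At 20w it was at 64.2, 46.1 and 29.8 in WT and listed at 0 in all 3 KO libraries. The 20w WT libraries held 88 reads and the KO libraries 0, which is at least 44.1-fold lower against a floor of 3 reads over the group, counting error only. Mpst and Tst, sulfurtransferases that act on cysteine-derived sulfur, were lower at 4w (-0.76 and -1.11) and 20w (-1.05 and -1.72), with limma adjusted p at most 0.0069. Cdo1, cysteine dioxygenase, was lower at 20w (log2 fold change -0.96 with SE 0.28, adjusted p = 0.039 by limma). Cth passed the filter on the mean only through the 4w and 20w WT libraries, so its difference is given as a description. Cth is among the 16 tested genes of that list. Besides it, those called lower were Mpst and Tst at 4w, and Mpst, Tst and Cdo1 at 20w. Of all genes, 2.66% were called lower at 4w and 4.28% at 20w. Some of these genes were known to move from earlier results of these data.

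The 10 named entries under the mean of 10 were Gpx2, Gpx5, Gpx6, Gsta1, Gsta2, Gstm3, Gstm6, Gstp2, Gstt4 and Mgst2. Just inside the threshold was Gsto2, and just outside it Gstp2, with a mean of 9.9. Gsta1 was at 3.1, 1.6 and 1.6 in 20w WT and at 6, 7.3 and 8.5 in 20w KO. Summed over all 44 members the normalized counts were 30889 ± 1576 in WT and 28856 ± 1690 in KO at P10 (± SD, n = 3 libraries per genotype). At 4w they were 50422 ± 2561 and 46864 ± 1997, and at 20w 52285 ± 791 and 53872 ± 1335. The summed values of the genotypes overlapped at each age, while Gstm2 within the sum differed by up to 14.3-fold.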

How the data were processed

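Per the file name in the labels, the deposited signal is DESeq2-normalized: reads per gene over a scaling factor for each library, not corrected for gene length. The submitters' processing notes name Bowtie2 2.0, mm9 and DESeq2, without role or order; the read counter and its strand setting are not given there. Dividing each library by its step gave whole reads for 100.0% of values within 0.001 reads. The 27 date-named entries (at most 0.204% of reads) were kept in totals. Values were analysed as log2(value + 1) in genes with a mean of at least 10, so fold changes of low genes are understated. A limma 3.58.1 model (R 4.3.3) with a mean per group over all 18 libraries gave two-sided tests, adjusted by Benjamini-Hochberg over 13032 genes. Exon lengths came from GENCODE, and promoters and chromosomes from RefSeq, both on GRCm38 and not the build of the deposited table; the table holds no coordinates. Alternatives were edgeR 4.0.16, DESeq2 1.42.0, a pseudocount of 5, no filter, a common read total, fewer groups, a replicate block and left-out libraries. Self-tests ran on simulated data. Named are members called in a genotype or interaction contrast, the best-known enzymes whatever their test, the 5 highest and lowest WT changes, and up to 4 other genes per list. Members and lists were chosen with earlier results of these data known.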

Additional observations from a re-analysis of the deposited data

Results flagged for a closer look

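The genotype effect (KO against WT, on the log2 scale) differed between ages by limma's test of the difference for 9 results, each with 3 libraries per group. All compare P10, whose libraries held RNA of both sexes, with a later age. Between P10 and 4w the effect moved by -1.71 for Gstk1 (adjusted p = 0.00027), by -0.93 for Gstm1 (0.0034), by -3.08 for Gstm2 (0.00027) and by -0.69 for Mgst1 (0.048). The Gstm1 value was not called without the 4 libraries highest in Rn45s (0.074). The Mgst1 value lost its call in 18 settings, with limma adjusted p up to 0.22. Between P10 and 20w it moved by -1.75 for Gstk1 (adjusted p = 8.1e-05 by limma), by -3.37 for Gstm2 (2e-05), by 0.95 for Gsto1 (0.0042), by 0.63 for Srxn1 (0.046) and by 0.50 for Txnrd1 (0.0045). The Txnrd1 value was not called with a common read total (0.37). The Srxn1 value lost its call in 16 settings, with limma adjusted p up to 0.34.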

How the results depend on the processing

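Of the calls, 2 of 3 at P10, 4 of 9 at 4w, 4 of 8 at 20w and 8 of 13 on average over the ages were kept in every alternative tried, and no named result changed sign while called. Without the 4 libraries highest in Rn45s, members called numbered 4 at 4w, 5 at 20w, 2 for the effect at 4w against P10 and 5 for WT at 20w against 4w. With a common read total they numbered 5 at 20w, 3 for the effect at 20w against P10 and 5 for WT at 20w against 4w. DESeq2 on the recovered reads called 2 for the effect at 20w against 4w, where limma called 0. Leaving out 1 library at a time gave 4 to 9 members at 4w, 0 to 1 for the effect at 20w against 4w and 8 to 14 for WT at 20w against 4w. The labels do not say whether library numbers pair the libraries. Same-number correlations were -0.245 to 0.123, which cannot settle it with 3 libraries per group. Library 2 had the highest Rn45s share of its group in each group. A replicate block gave 7 calls for WT at 20w against 4w and 25 for WT at 4w against P10. At 4w it gave 6, without Cat, Gstm4 and Txnrd1 (limma adjusted p of 0.057, 0.086 and 0.074). The cause of these moves was not tested. With 3 libraries per group, the spread between libraries limits which small differences can be called, and members that share sequence with relatives are uncertain.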

Other observations

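Enzymes that clear aldehydes, outside the transferase and antioxidant families, also differed between genotypes. Aldh2, which clears lipid-derived aldehydes in mitochondria, held 2746, 2642 and 2619 normalized counts in 20w WT and 717, 918 and 870.4 in 20w KO. Its log2 fold changes were -0.62, -1.72 and -1.68 at P10, 4w and 20w (adjusted p at most 0.00077 by limma). In the list of dismutase chaperones and aldehyde clearance, 5 of 16 tested genes were lower at 4w and 4 at 20w. Among all genes the shares called lower were 2.66% and 4.28%. The lowered genes of the list included Aldh9a1 (-0.78 at 20w) and Aldh1b1 (-0.72). Akr1a1, an aldehyde reductase, was higher at 20w (0.40).

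Sesn1, a stress-responsive partner of the peroxiredoxins, was lower at 4w and 20w (-0.73 and -0.60), and Txnip, which binds thioredoxin, at 4w (-0.84). Their list had 2 of 27 genes lower at 4w and 3 at 20w, against 2.66% and 4.28% of all genes. Of 17 tested genes of NADPH supply, 3 were lower at 4w and 3 at 20w, against 2.66% and 4.28% of all genes. Idh1 was lower at 4w and 20w (-0.39 and -0.34) and Aldh1l1 at both (-1.67 and -1.68). Nnt, the mitochondrial transhydrogenase that makes NADPH, was called at no age. In the 4w WT group it was at 7943, 20807 and 21124, so that library 1 stood far under the other 2. C57BL/6 substrains are known to differ at Nnt, and the labels give no substrain. Without that library 9 members were called at 4w, the 9 called with it. Msrb1, a methionine sulfoxide reductase, was lower at P10 (-0.65), as was Tfrc, the transferrin receptor, and neither was called at 4w or 20w. The list of Krüppel-like factors and clock outputs had 5 of 14 lower at 20w, Klf15 itself included, against 4.28% of all genes. Klf9 was at -0.42 and Ppara, listed with them, at -0.48.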
